A study of Mus musculus with 4 samples.

Results

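The 9 pericyte markers Rgs5, Rgs4, Mcam, Ndufa4l2, Higd1b, Kcnj8, Abcc9, Cspg4 and Des were followed among the 22609 genes of a mouse RNA sequencing count table. They were picked by gene symbol, which the table writes in lower case (rgs5, rgs4, mcam, ndufa4l2, higd1b, kcnj8, abcc9, cspg4, des). All 9 were found, and all 9 passed the filter on low counts that left 13875 genes for testing. The cells were sorted from pancreatic ductal adenocarcinoma of a spontaneous mouse model on the C57BL/6 background, and the labels name neither its tumour-driving alleles nor the ages and number of animals. All cells carried FAP, the fibroblast activation protein of tumour stroma, and they were divided by the surface sialomucin CD34 into FAP+ CD34+ cells (2 libraries) and FAP+ CD34- cells (2 libraries). The titles call the libraries of a group biological replicates, and nothing states how many tumours stood behind each.

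Pericytes are mural cells that sit on the outside of capillaries within the basement membrane they share with endothelium. They stabilise vessels, respond to PDGF-B from endothelial cells through the receptor PDGFRB, and set capillary tone. No marker is exclusive to them: smooth muscle cells, activated fibroblasts and, in the pancreas, stellate cells use several of the same genes, so that a set of markers is usually read together.

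The libraries held 10322354 and 13649942 counted reads in CD34+ replicates 1 and 2, against 13218444 and 14633561 in CD34- replicates 1 and 2. At least 1 read was counted for 19627 and 19613 genes in the CD34+ libraries, against 17452 and 16818 in the CD34- libraries. The division by CD34 was visible in the transcripts. Cd34 was 143 and 293 CPM (counts scaled to the library total) in CD34+ cells, against 18.3 and 23.9 CPM in CD34- cells. Fap was 79.0 and 39.8 CPM in CD34+ cells, against 142 and 136 CPM in CD34- cells. Its log2 fold change was -1.20 (SE 0.37, unadjusted p = 0.017, adjusted p = 0.230, edgeR), although both groups were sorted as FAP+. Without FAP- cells in the series, these values cannot show the sort on FAP. Fibroblast genes were abundant throughout, with Pdgfra, the PDGF receptor of fibroblasts, at 234 and 324 CPM in CD34+ cells, against 259 and 285 CPM in CD34- cells.

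The 9 markers did not behave as 1 block. Rgs5, Mcam, Ndufa4l2 and Higd1b were lower in CD34+ cells by a wide margin, Rgs4 and Des were lower by small margins, and Kcnj8, Abcc9 and Cspg4 overlapped between the groups, with CD34+ libraries that differed from each other. Both CD34+ libraries lay below both CD34- libraries for 6 of 9 markers, where 26.6% of all tested genes did, and both lay above for 0 of 9, where 23.4% of all tested genes did. By edgeR's quasi-likelihood test, 4 of 9 were lower at an unadjusted p under 0.05, against 6.65% of all tested genes, and 0 of 9 were higher, against 9.81%. After Benjamini-Hochberg adjustment over all tested genes 0 of 9 passed a threshold of 0.05, and neither did any other gene (0%). DESeq2 placed the same 4 markers under that threshold as lower, against 1.38% of all genes to which it gave an adjusted p. Limma voom placed 0 of 9 under that threshold and 5 of 9, all lower, under an unadjusted p of 0.05. Of the 13875 genes tested by voom 942 were lower and 1240 higher at that unadjusted p. The median log2 fold change (CD34+ over CD34-) was -0.83 over the 9 markers and -0.02 over all tested genes.

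**Figure D1:**
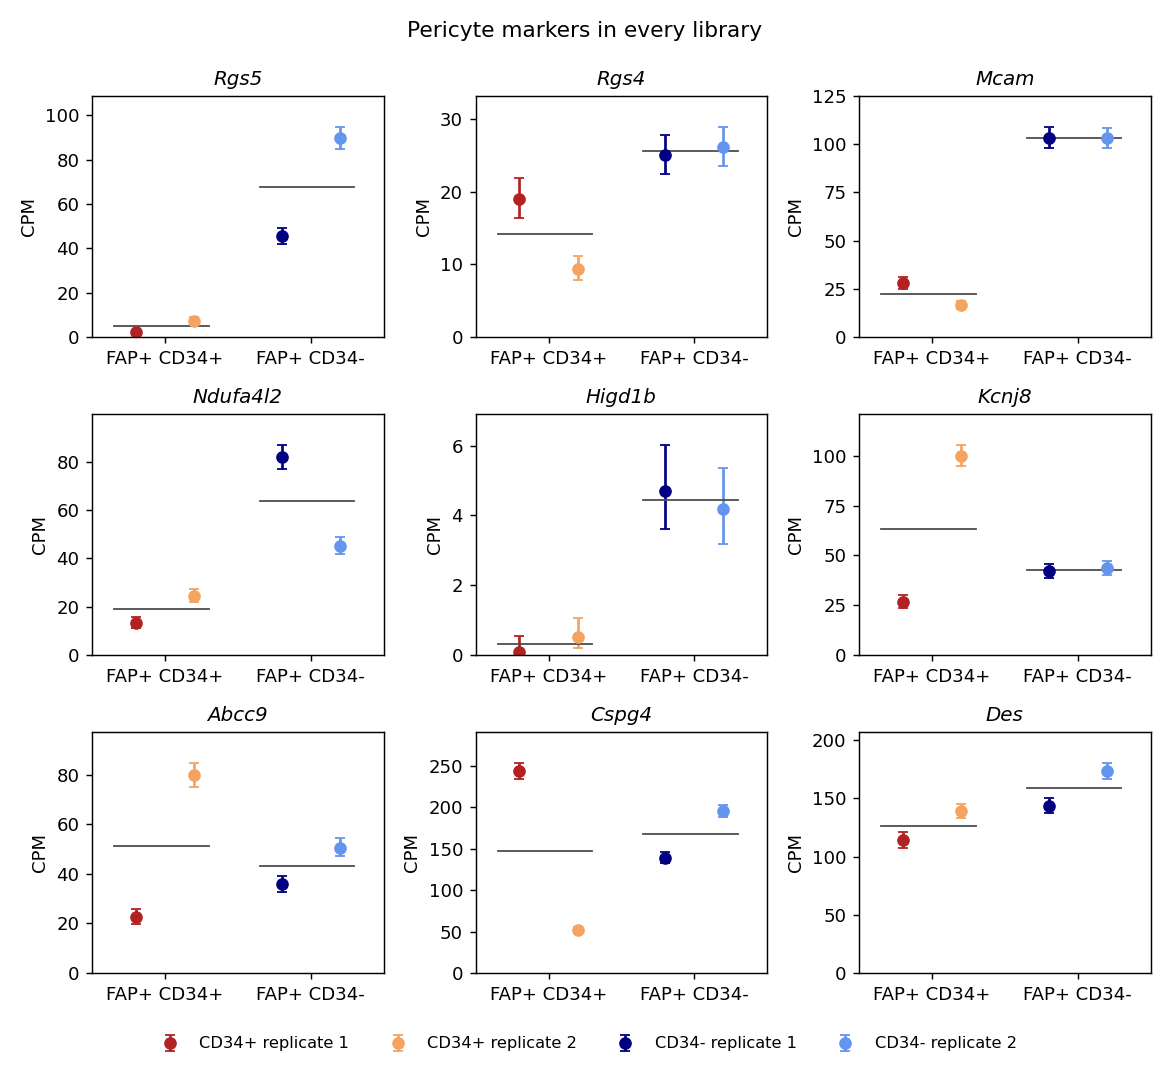
CPM of each pericyte marker (y axis, from 0, a scale of its own for each gene) in the 2 FAP+ CD34+ libraries (left) and the 2 FAP+ CD34- libraries (right). Bars are exact Poisson 95% intervals of the count and cover counting error only, and horizontal lines are group means. Rgs5, Mcam, Ndufa4l2 and Higd1b lie well apart between groups, while Kcnj8, Abcc9 and Cspg4 differ most between the CD34+ libraries.

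The regulators of G protein signalling were taken first. Rgs5 encodes a GTPase-activating protein for Gi and Gq alpha subunits and is a classical marker of pericytes in tumour vessels. It had 22 and 100 reads in CD34+ cells, or 2.13 and 7.33 CPM, against 601 and 1312 reads, or 45.5 and 89.7 CPM, in CD34- cells. The highest CD34+ library was thus far below the lowest CD34- library, although the libraries also differed within each group. The log2 fold change was -3.82 (SE 0.65, unadjusted p = 9.9e-04, adjusted p = 0.169, edgeR), the 81st smallest p of all tested genes. In sorted bulk cells such a difference cannot be divided into fewer cells that use the gene and less RNA of it per cell.

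Rgs4 belongs to the same R4 group of RGS proteins and is the nearest protein-coding neighbour of Rgs5 on mouse chromosome 1, with 0 protein-coding genes between them. It was 19.0 and 9.38 CPM in CD34+ cells, against 25.0 and 26.2 CPM in CD34- cells. The groups did not overlap, but the step was much smaller than that of its neighbour (log2 fold change -0.83, SE 0.39, unadjusted p = 0.077, adjusted p = 0.348, edgeR). Read for read, Rgs5 stood at 0.112 and 0.781 of Rgs4 in the CD34+ libraries, against 1.82 and 3.43 in the CD34- libraries. Both CD34+ ratios lay under both CD34- ratios.

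The other RGS genes of the R4 group lay closer together. Of 7 found, 5 were tested, and 0 had an unadjusted p under 0.05 in either direction, with a median log2 fold change of -0.24 (edgeR). Over all tested genes 6.65% were lower and 9.81% higher at that p. Rgs16, the most abundant, was 911 and 408 CPM in CD34+ cells, against 708 and 1077 CPM in CD34- cells, and the groups overlapped. Rgs2, a regulator that acts on Gq, was 121 and 121 CPM in CD34+ cells, against 132 and 155 CPM in CD34- cells. Rgs3 was 55.7 and 37.7 CPM in CD34+ cells, against 54.3 and 53.4 CPM in CD34- cells.

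The promoter windows of Rgs5 and Rgs4 are shown because these neighbours differ in how far they lie apart between the groups. Each runs from 250 bases before to 50 bases after the annotated start, written 5′ to 3′ in the direction of the gene, from RefSeq on the GRCm38.p6 build, which is not the mm9 build of the counts. Rgs5 is chr1:169655251-169655550 on the plus strand and Rgs4 is chr1:169747593-169747892 on the minus strand. Capitals mark every match, on either strand, to the motifs ACGTG and GCGTG (cores of the hypoxia response element), GTGGGAA (the site of the Notch effector RBPJ), CANNTG (the E box of basic helix-loop-helix factors) and the CArG box of serum response factor.
Rgs5: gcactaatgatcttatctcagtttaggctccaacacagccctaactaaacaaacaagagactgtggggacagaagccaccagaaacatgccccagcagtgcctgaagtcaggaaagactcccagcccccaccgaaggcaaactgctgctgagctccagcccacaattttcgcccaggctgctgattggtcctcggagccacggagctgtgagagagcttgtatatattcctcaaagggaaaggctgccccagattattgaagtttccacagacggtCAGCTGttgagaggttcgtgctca
Rgs4: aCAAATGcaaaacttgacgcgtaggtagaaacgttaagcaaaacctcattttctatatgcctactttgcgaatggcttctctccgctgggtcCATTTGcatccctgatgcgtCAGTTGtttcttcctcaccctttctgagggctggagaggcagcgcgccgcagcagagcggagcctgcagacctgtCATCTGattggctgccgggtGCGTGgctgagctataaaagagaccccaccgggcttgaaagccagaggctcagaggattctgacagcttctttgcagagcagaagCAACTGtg
Rgs5 held 1 E box, and Rgs4 held 5 E boxes and 1 GCGTG. At least 1 E box stands in 72.3% of all 32851 promoter windows and GCGTG in 32.4%, so that neither match sets these windows apart. Windows were found for 7 of the 9 markers, not for Ndufa4l2 and Higd1b. None of the 7 held ACGTG (19.6% of all windows), GTGGGAA (6.38%) or a CArG box (1.63%). GCGTG matched in 3 of 7 and CANNTG in 6 of 7.

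Mcam encodes CD146, an immunoglobulin-superfamily adhesion protein of pericytes, smooth muscle and endothelium. It was 27.9 and 16.5 CPM in CD34+ cells, against 103 and 103 CPM in CD34- cells, so that the CD34- libraries were nearly equal. The log2 fold change was -2.20 (SE 0.33, unadjusted p = 5.0e-04, adjusted p = 0.159, edgeR), the 41st smallest p of all tested genes and the smallest of the 9 markers.

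Transcripts that mark endothelial cells, which also use Mcam, mostly ran the other way. Of 18 endothelial markers 15 had a positive log2 fold change (median 1.37), and 9 were higher and 0 lower at an unadjusted p under 0.05 (edgeR). Over all tested genes 9.81% were higher and 6.65% lower at that p. Emcn (4.84 and 5.27 CPM in CD34+ cells, against 10.7 and 6.83 CPM in CD34- cells) and Esam (8.91 and 9.30 against 13.5 and 17.5 CPM) were lower without overlap. Pecam1, the junctional adhesion protein of endothelium, was 15.8 and 11.7 CPM in CD34+ cells, against 1.51 and 3.42 CPM in CD34- cells. Vwf, encoding von Willebrand factor, was 27.1 and 16.3 CPM in CD34+ cells, against 3.03 and 3.42 CPM in CD34- cells. Mcam had 1.77 and 1.41 reads for each Pecam1 read in the CD34+ libraries, against 68.3 and 30.2 in the CD34- libraries. Summed over the 18 markers the endothelial level was 507 and 407 CPM in CD34+ cells, against 315 and 418 CPM in CD34- cells, and Eng, the TGF-beta co-receptor endoglin, was its largest part (244 and 268 against 222 and 304 CPM). The part of endothelial RNA in the Mcam values was not tested.

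Ndufa4l2 and Higd1b encode small mitochondrial proteins. Ndufa4l2 is related to a subunit of the respiratory chain, is induced by hypoxia-inducible factor and lowers oxygen use. It was 13.4 and 24.5 CPM in CD34+ cells, against 81.9 and 45.3 CPM in CD34- cells. All CD34+ values lay under all CD34- values, with a gap of less than 1 log2 unit between the nearest libraries. The log2 fold change was -1.71 (SE 0.39, unadjusted p = 0.0045, adjusted p = 0.178, edgeR).

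Higd1b carries a hypoxia-induced domain and is known mainly from brain and lung pericytes. It was the least counted marker, with 1 and 7 reads in CD34+ cells, against 62 and 61 reads in CD34- cells. That was 0.0969 and 0.513 CPM in CD34+ cells, against 4.69 and 4.17 CPM in CD34- cells. The pooled CPM ratio of CD34+ over CD34- was 0.0756, with an exact 95% interval of 0.0319 to 0.154 that covers counting error only. The fitted log2 fold change was -3.73 (SE 0.72, unadjusted p = 0.0019, adjusted p = 0.173, edgeR). At so few reads it moved with the CD34+ library kept, to -3.10 without replicate 1 and -5.36 without replicate 2.

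Relatives of these 2 genes were measured beside them. Ndufa4, the respiratory chain subunit itself, was 84.6 and 89.7 CPM in CD34+ cells, against 65.7 and 53.2 CPM in CD34- cells, a log2 fold change of 0.58 (SE 0.23, unadjusted p = 0.045, adjusted p = 0.295, edgeR). Higd1a, the widely used form of the same family, was 8.14 and 9.96 CPM in CD34+ cells, against 11.5 and 13.9 CPM in CD34- cells. Higd2a was 61.1 and 55.8 CPM in CD34+ cells, against 53.3 and 48.9 CPM in CD34- cells. Higd1c had 0 reads in every library of the count table, which allows up to 0.291 CPM in the shallowest, while the authors' deposited FPKM lists it at 0.883 in CD34+ replicate 1.

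Genes induced by low oxygen were mostly lower as well. Of 12 such genes 9 had a negative log2 fold change (median -1.20), and 6 were lower and 1 higher at an unadjusted p under 0.05 (edgeR). Over all tested genes 51.3% had a negative log2 fold change, and 6.65% were lower and 9.81% higher at that p. Slc2a1, the glucose transporter GLUT1, was 132 and 109 CPM in CD34+ cells, against 380 and 328 CPM in CD34- cells. Pdk1, the kinase that holds pyruvate out of mitochondria, was 13.5 and 15.8 CPM in CD34+ cells, against 53.3 and 36.0 CPM in CD34- cells. P4ha1, a prolyl hydroxylase of collagen, was 137 and 179 CPM in CD34+ cells, against 455 and 468 CPM in CD34- cells. Ndrg1, also an oxygen-regulated gene, was higher at 1339 and 726 CPM in CD34+ cells, against 308 and 491 CPM in CD34- cells. Car9 (7.17 and 9.30 against 6.81 and 6.36 CPM) and Adm (40.6 and 36.4 against 33.7 and 26.4 CPM) were higher without overlap too. Their unadjusted p was 0.387 and 0.162 (edgeR). The part of oxygen-regulated expression in the Ndufa4l2 difference was not tested.

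Kcnj8 and Abcc9 form 1 channel and were read together. Kcnj8 encodes Kir6.1, the pore, and Abcc9 encodes SUR2, the sulfonylurea receptor, of the ATP-sensitive potassium channel that hyperpolarises mural cells. Kcnj8 was 26.5 and 100 CPM in CD34+ cells, against 42.3 and 43.5 CPM in CD34- cells. Abcc9 was 22.6 and 79.8 CPM in CD34+ cells, against 35.9 and 50.6 CPM in CD34- cells. For both genes CD34+ replicate 1 was the lowest and CD34+ replicate 2 the highest of the 4 libraries, so that the CD34- libraries lay between them.

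The group difference was about the size of its error for Kcnj8 and smaller than it for Abcc9. On the log2 scale it was 0.57 for Kcnj8 (SE 0.56, adjusted p = 0.629) and 0.24 for Abcc9 (SE 0.57, adjusted p = 0.853, both edgeR). Without CD34+ replicate 2 these became -0.68 and -0.94, and without CD34+ replicate 1 they were 1.21 and 0.86 (adjusted p from 0.219 to 0.484, edgeR). Between the CD34+ libraries Kcnj8 differed 3.77-fold and Abcc9 3.53-fold by CPM (replicate 2 over replicate 1), and 1.30% and 1.56% of tested genes had a gap at least as large on the log2(CPM + 1) scale. The balance of the channel's parts varied far less, with 1.18 and 1.25 Kcnj8 reads for each Abcc9 read in CD34+ cells, against 1.18 and 0.860 in CD34- cells. The pore and receptor genes of the beta-cell form of the channel were close to 0, with Kcnj11 at no more than 0.151 CPM and Abcc8 at no more than 0.775 CPM in any library.

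The promoter windows of Kcnj8 and Abcc9 are shown because these genes are neighbours on chromosome 6, with 0 protein-coding genes between them, and had the same order of libraries at both ends. They are chr6:142571565-142571864 and chr6:142702225-142702524, both on the minus strand, from RefSeq on GRCm38.p6 with capitals as above.
Kcnj8: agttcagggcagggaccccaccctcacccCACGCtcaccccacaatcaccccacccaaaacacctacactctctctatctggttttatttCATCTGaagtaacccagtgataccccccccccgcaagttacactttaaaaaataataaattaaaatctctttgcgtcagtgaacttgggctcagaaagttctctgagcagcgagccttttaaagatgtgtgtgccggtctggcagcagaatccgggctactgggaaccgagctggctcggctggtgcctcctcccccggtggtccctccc
Abcc9: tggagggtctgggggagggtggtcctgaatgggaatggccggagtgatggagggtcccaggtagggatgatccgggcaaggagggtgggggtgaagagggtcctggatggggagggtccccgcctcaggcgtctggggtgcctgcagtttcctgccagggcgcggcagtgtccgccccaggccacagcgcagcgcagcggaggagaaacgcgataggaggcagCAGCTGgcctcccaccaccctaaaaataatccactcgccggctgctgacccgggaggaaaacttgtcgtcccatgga
Each window held 1 E box, at -160 in Kcnj8 and at -27 in Abcc9 counted from the start, and Kcnj8 also held 1 GCGTG on the opposite strand. No motif searched was common to these windows other than the E box.

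**Figure D2:**
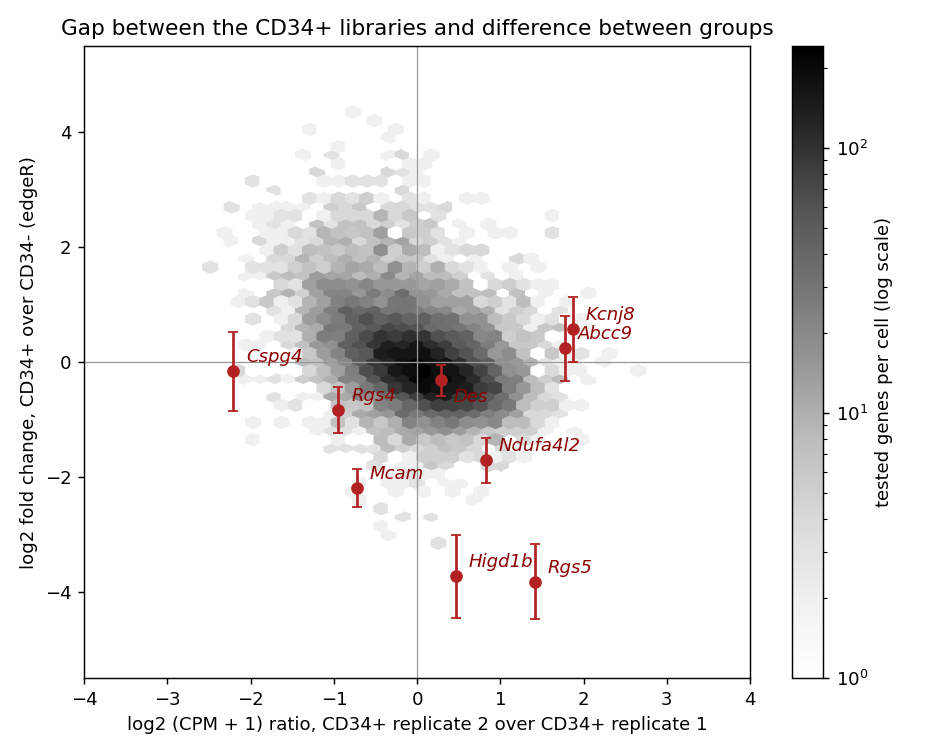
Each gene's gap between the CD34+ libraries (x axis, log2 ratio of CPM + 1, replicate 2 over replicate 1) and its difference between groups (y axis, edgeR log2 fold change, CD34+ over CD34-). Grey hexagons count all tested genes on a log colour scale, and red points are the pericyte markers with bars of 1 SE. Kcnj8 and Abcc9 lie at the right edge and Cspg4 at the left edge, each near 0 on the y axis, while Rgs5, Higd1b, Mcam and Ndufa4l2 lie low.

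Cspg4 showed the reverse order of the CD34+ libraries. It encodes the NG2 proteoglycan, a large membrane protein of pericytes, of immature mesenchymal cells and of glial progenitors. It was 243 and 51.9 CPM in CD34+ cells, against 139 and 196 CPM in CD34- cells. CD34+ replicate 1 was the highest library and CD34+ replicate 2 the lowest, and only 0.598% of tested genes had a gap as large between the CD34+ libraries. On the log2 scale the group difference was -0.16 (SE 0.68, adjusted p = 0.922, edgeR). It turned to 0.54 without CD34+ replicate 2 and was -1.71 without CD34+ replicate 1. Markers of Schwann and neural crest cells, which can use Cspg4, included Sox10, the transcription factor that defines them, which had 0 reads in every library but CD34+ replicate 2 (0.0733 CPM).

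Des encodes desmin, the intermediate filament of muscle, and marks pericytes and pancreatic stellate cells. It was 114 and 139 CPM in CD34+ cells, against 144 and 173 CPM in CD34- cells. The groups did not overlap, but CD34+ replicate 2 lay just under CD34- replicate 1, and the fold change was close to its error (log2 -0.32, SE 0.27, adjusted p = 0.575, edgeR). Other filament genes overlapped between groups, with Vim, encoding vimentin, at 3901 and 5192 CPM in CD34+ cells, against 4844 and 5256 CPM in CD34- cells. Nes, encoding nestin, was 56.9 and 14.7 CPM in CD34+ cells, against 47.2 and 43.7 CPM in CD34- cells. Synm, encoding synemin, a partner of desmin, was 21.2 and 34.9 CPM in CD34+ cells, against 11.3 and 32.9 CPM in CD34- cells.

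Stellate and muscle genes were measured beside desmin. Lrat, which stores retinol as esters in stellate cells, was 5.81 and 9.60 CPM in CD34+ cells, against 54.3 and 28.7 CPM in CD34- cells (log2 fold change -2.39, SE 0.40, unadjusted p = 8.9e-04, adjusted p = 0.166, edgeR). The other 4 tested stellate genes had positive log2 fold changes. Skeletal muscle regulators were close to 0, with Myod1 at no more than 0.586 CPM and Myog at no more than 1.26 CPM in any library.

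Levels can be compared between genes only per length, for which the authors' RPKM values (read number per gene length and sequencing depth) were used. In CD34- cells Des stood at 62.1 ± 10.5 RPKM and Ndufa4l2 at 55.1 ± 20.5 RPKM (SD, n = 2 each), a difference smaller than their spread. Rgs5 at 31.6 ± 15.7 and Mcam at 30.0 ± 1.10 RPKM followed and likewise did not differ beyond their spread, and the distance of Rgs5 from Ndufa4l2 was about the size of theirs. Cspg4 at 17.5 ± 4.83 and Kcnj8 at 16.5 ± 0.956 RPKM formed the next pair, again within their spread. Rgs4 at 7.32 ± 0.504, Higd1b at 5.06 ± 0.232 and Abcc9 at 4.84 ± 1.35 RPKM came last, the last 2 within their spread.

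In CD34+ cells the order was another one. Des led again at 38.4 ± 12.2 RPKM, followed by Kcnj8 at 20.0 ± 18.7, Ndufa4l2 at 13.2 ± 7.61 and Cspg4 at 10.8 ± 8.66 RPKM (SD, n = 2 each), which did not differ beyond their spread. Mcam at 4.78 ± 0.893, Abcc9 at 4.69 ± 4.25 and Rgs4 at 2.97 ± 0.919 RPKM came next, also within the spread of Abcc9. Rgs5 was next to last at 1.80 ± 1.62 RPKM, within its spread of Rgs4, and Higd1b last at 0.291 ± 0.307 RPKM. Rgs5 thus ranked 8th and 7th of the 9 markers in the CD34+ libraries, against 4th and 2nd in the CD34- libraries. Among all tested genes Rgs5 lay at the 18.2th and 40.0th percentile of RPKM in the CD34+ libraries, against the 79.4th and 88.9th in the CD34- libraries.

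A wider list of 27 other genes known from pericytes and mural cells was divided. Of 24 tested, 14 had a negative log2 fold change (median -0.44), 7 were lower and 3 higher at an unadjusted p under 0.05, and 0 passed after adjustment (edgeR). Over all tested genes 51.3% had a negative log2 fold change, and 6.65% were lower and 9.81% higher at that unadjusted p. Pdgfrb, the PDGF-B receptor, was 296 and 330 CPM in CD34+ cells, against 599 and 486 CPM in CD34- cells (log2 fold change -0.77, SE 0.27, unadjusted p = 0.030, adjusted p = 0.270, edgeR). Lower as well were S1pr3, a sphingosine-1-phosphate receptor of mural cells (52.8 and 49.7 against 133 and 100 CPM), Angpt1, the mural ligand of endothelial TIE2 (47.0 and 67.1 against 150 and 127 CPM), Gucy1b3, a subunit of the nitric oxide receptor, Foxs1, Rasl12 and Tbx18.

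Each Pdgfrb read was matched by 0.00720 and 0.0222 Rgs5 reads in the CD34+ libraries, against 0.0759 and 0.185 in the CD34- libraries, so that Rgs5 was also lower relative to this receptor. The 3 higher genes were Anpep, the aminopeptidase CD13 (46.0 and 32.0 CPM in CD34+ cells, against 9.08 and 8.54 CPM in CD34- cells), Steap4, a metalloreductase (34.7 and 97.2 against 22.5 and 17.8 CPM), and Vtn, vitronectin (33.4 and 28.4 against 9.23 and 18.9 CPM). Cygb, encoding the stellate and pericyte globin cytoglobin, was the most abundant of the list at 1213 and 2006 CPM in CD34+ cells, against 1358 and 1110 CPM in CD34- cells, and overlapped. Zic1 and Atp13a5, known from brain pericytes, and Cox4i2 stayed under 1 CPM in every library and were not tested.

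Contractile genes, which smooth muscle and myofibroblasts use, were near balance. Of 15 tested, 9 had a negative log2 fold change (median -0.10), with 3 lower and 1 higher at an unadjusted p under 0.05 (edgeR). Over all tested genes 51.3% had a negative log2 fold change, and 6.65% were lower and 9.81% higher at that p. The lower ones were Actg2, smooth muscle gamma actin (17.8 and 10.5 CPM in CD34+ cells, against 46.3 and 44.8 CPM in CD34- cells), Cnn1, calponin (5.33 and 4.32 against 11.7 and 10.9 CPM), and Myh11, smooth muscle myosin (8.33 and 7.47 against 14.3 and 20.8 CPM). Synpo2, an actin-binding protein of Z-discs, was higher at 16.1 and 7.03 CPM in CD34+ cells, against 1.97 and 2.73 CPM in CD34- cells. Acta2, alpha smooth muscle actin, was 767 and 489 CPM in CD34+ cells, against 883 and 860 CPM in CD34- cells, without overlap and with an adjusted p of 0.537 (edgeR).

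**Figure D3:**
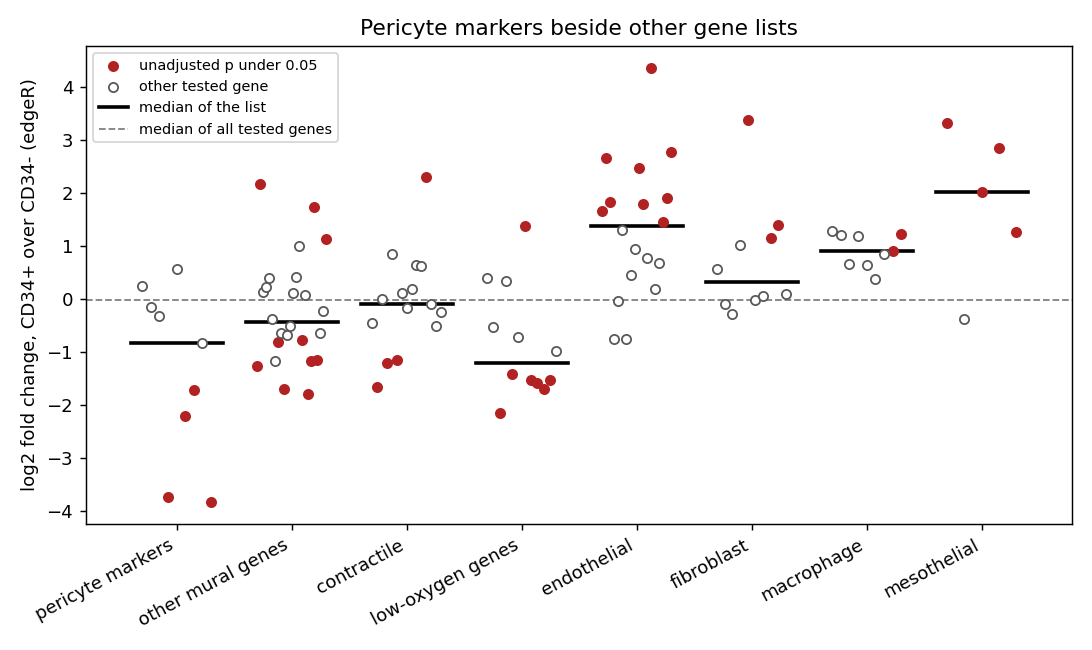
Log2 fold change of every tested gene (y axis, CD34+ over CD34-, edgeR) in the list of pericyte markers and 7 other lists (x axis). Red points have an unadjusted p under 0.05, black bars are list medians, and the dashed line is the median of all tested genes. The pericyte markers and the low-oxygen genes have the lowest medians (-0.83 and -1.20), and the endothelial and mesothelial markers the highest (1.37 and 2.02).

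Markers of other possible cell types within the sort were measured list by list. Of 9 macrophage markers 9 had a positive log2 fold change (median 0.90), with 2 higher at an unadjusted p under 0.05 (edgeR). Over all tested genes 9.81% were higher and 6.65% lower at that p. Lyz2, encoding lysozyme, was 70.9 and 76.1 CPM in CD34+ cells, against 37.9 and 41.8 CPM in CD34- cells. The summed level of the 9 was 278 and 169 CPM in CD34+ cells, against 161 and 95.7 CPM in CD34- cells. Of 5 mesothelial markers 4 were higher at that p (median 2.02), with a summed level of 266 and 145 CPM in CD34+ cells, against 135 and 93.2 CPM in CD34- cells. Wt1, a transcription factor of mesothelium and the largest part of that sum in the CD34+ libraries, was 206 and 120 CPM in CD34+ cells, against 57.7 and 79.3 CPM in CD34- cells. Msln, encoding mesothelin, had a negative log2 fold change (-0.37) and overlapped, at 49.8 and 13.8 CPM in CD34+ cells, against 75.0 and 11.6 CPM in CD34- cells. Of 3 tested Schwann cell markers 0 had such a p, and their list summed to 18.8 and 22.8 CPM in CD34+ cells, against 23.9 and 21.0 CPM in CD34- cells. Of 2 tested skeletal muscle markers 1 was higher at that p, Tnnt3, a troponin, at 11.5 and 7.69 CPM in CD34+ cells, against 1.89 and 2.39 CPM in CD34- cells. Epithelial markers overlapped, summing to 732 and 500 CPM in CD34+ cells, against 726 and 366 CPM in CD34- cells. Of 10 fibroblast genes 7 had a positive log2 fold change (median 0.33), with 3 higher at that p, among them Dpt, the matrix protein dermatopontin, at 377 and 604 CPM in CD34+ cells, against 51.6 and 44.6 CPM in CD34- cells. The part of any of these cells in the pericyte marker values was not tested.

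Summed over the 9 markers, pericyte marker reads made up 469 and 429 CPM in CD34+ cells, against 621 and 731 CPM in CD34- cells. Cspg4, Des, Kcnj8 and Abcc9 together supplied most of these reads in every library.

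The genes closest to each marker were ranked over the 4 libraries by Euclidean distance between profiles of log2(CPM + 1), each centred on its mean, among 10521 other genes with a mean of at least 5 CPM (10522 for Higd1b). With 4 libraries such nearness is a description only. Closest to Rgs5 were Dmp1 (distance 1.07), Ednrb (1.13), Gzme (1.21), Spp1 (1.53) and Spn (1.53), none of which lay as near to it as the closest genes did to the other markers. Ednrb, an endothelin receptor, was 2.91 and 5.57 CPM in CD34+ cells, against 54.7 and 41.9 CPM in CD34- cells. Spp1, encoding osteopontin, was 1789 and 2055 CPM in CD34+ cells, against 14886 and 11884 CPM in CD34- cells.

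Closest to Mcam was Ntn5 (0.25), to Higd1b Car11 (0.16), to Rgs4 Enah (0.17) and to Des 9030624j02rik (0.032). Closest to Ndufa4l2 was Apln (0.22), the oxygen-regulated peptide apelin, at 3.88 and 9.45 CPM in CD34+ cells, against 31.9 and 15.4 CPM in CD34- cells. Cspg4 was matched most closely by Inhba (0.034), the activin A subunit, at 1061 and 226 CPM in CD34+ cells, against 618 and 854 CPM in CD34- cells. Kcnj8 was matched by Smoc2 (0.21), a secreted calcium-binding matrix protein, at 327 and 1007 CPM in CD34+ cells, against 429 and 457 CPM in CD34- cells. Closest to Abcc9 was Anxa8 (0.14).

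No marker was the nearest gene of another. Abcc9 stood 15th nearest to Kcnj8 and Kcnj8 29th nearest to Abcc9. Mcam and Ndufa4l2 stood 44th and 74th nearest to Rgs5, and Ndufa4l2 and Mcam 42nd and 84th nearest to Higd1b. Rgs4 stood 95th nearest to Cspg4.

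**Figure D4:**
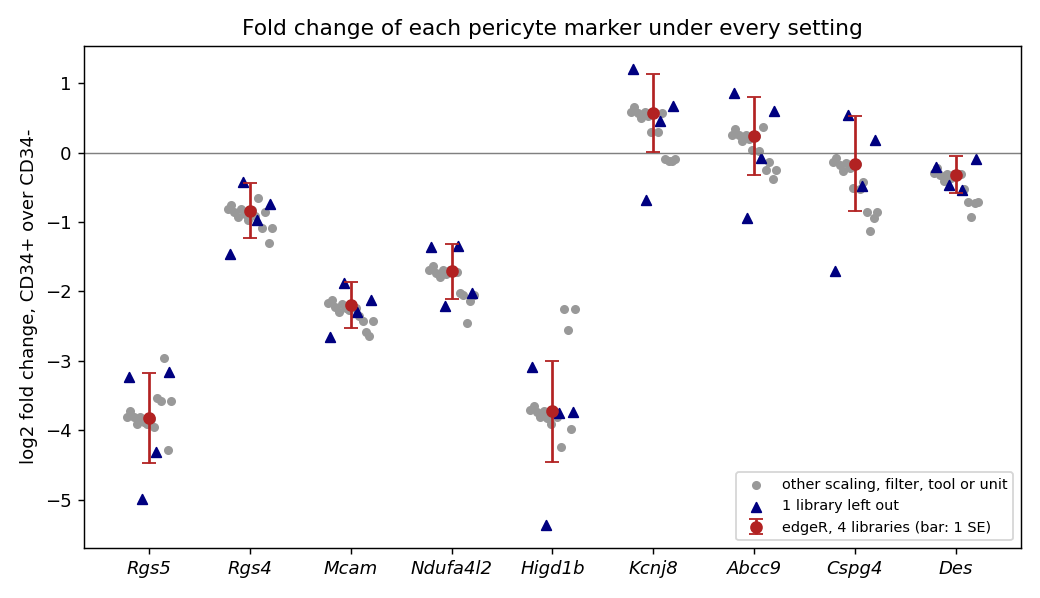
Log2 fold change of each marker (y axis, CD34+ over CD34-) by edgeR on all 4 libraries (red, bar of 1 SE), with 1 library left out (blue triangles) and under the other scalings, filters, tools and units (grey). Rgs5, Mcam, Ndufa4l2, Higd1b, Rgs4 and Des stay below 0 throughout, while Kcnj8, Abcc9 and Cspg4 lie on both sides of 0.

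Across the main setting and 18 alternatives, the log2 fold change of Rgs5 lay between -4.99 and -2.96, that of Mcam between -2.66 and -1.87, that of Ndufa4l2 between -2.45 and -1.34 and that of Higd1b between -5.36 and -2.25. Each of these 4 had an unadjusted p under 0.05 in every setting that kept 2 libraries in each group. The number of all genes at such a p varied with the setting. It was 923 lower and 1361 higher of 13875 in the main setting (edgeR). On filtered log2(RPKM + 1) it was 2186 lower and 393 higher of 11365 (limma). An adjusted p under 0.05 was reached by Rgs5 and Mcam in 7 of 19 settings, by Higd1b in 6 and by Ndufa4l2 in 4. Rgs4 lay between -1.46 and -0.42 and had an unadjusted p under 0.05 in 8 of 19 settings. Des lay between -0.93 and -0.10 and had such a p only on log2(FPKM + 1). On that scale 1909 of 11142 genes were lower and 323 higher at an unadjusted p under 0.05 (limma).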

How the data were processed

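RNA of FAP+ CD34+ and FAP+ CD34- cells (2 libraries each) was extracted with Purelink and amplified with MessageAmp, per the labels' protocols, so that 1 molecule can give many copies. Tools in the submitters' processing notes are TopHat2, Bowtie2, HTSeq and edgeR, with build mm9. Their versions, the annotation and the use of strand are not stated in the labels; without strand, reads of a gene and of one antisense to it cannot be separated. The authors deposited whole-number counts per gene, RPKM for the same genes, and, for 22558 genes, bias-adjusted FPKM, as the deposited name has it. The authors deposited estimated counts of fragments with these FPKM, which were rounded here. Beside these, 14 further columns of each file match no sample here and were not used.

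CPM are counts over the column total. Counts were tested with edgeR 4.0.16 (R 4.3.3; TMM, filterByExpr, quasi-likelihood F test, group as the only term, two-sided, Benjamini-Hochberg at 0.05); the fit had 2 residual and 4.17 prior degrees of freedom, and the SE is the log2 fold change over the square root of F. Alternatives used limma 3.58.1 (voom, or log2 of RPKM or FPKM with pseudocount 1 or 0.1 and at least 1 RPKM or FPKM in 2 libraries) and DESeq2 1.42.0. An exact permutation test of 2 against 2 libraries cannot go below p = 0.333, and none was run. The p-values weigh the group difference against the spread between these libraries, which the fit moderates with the spread seen over other genes. With 3 counts as the floor, a count of 0 allows up to 0.291 and 0.220 CPM in CD34+ and 0.227 and 0.205 CPM in CD34- libraries, counting error only. Markers, lists and tests were chosen with earlier results of these data known. Named were all 9 markers, up to 3 genes of the smallest p and the most abundant gene of each list (mean of at least 5 CPM), all genes of lists of 4 or fewer, and the nearest genes by profile; other list members were named after their values were seen. Promoter windows are from RefSeq on GRCm38.p6. A few list members are not reported here.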

Additional observations from a re-analysis of the deposited data

How the results depend on the processing

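The count of markers with an adjusted p under 0.05, 0 in the main setting, was 4 with no filter on low counts, with DESeq2, with edgeR's exact test and with limma on log2(RPKM + 1), 3 with limma on log2(FPKM + 1) and on log2(RPKM + 0.1), and 0 with every library left out in turn. Over all genes that count was 0 in the main setting, 2 with upper-quartile factors, with scaling by column total and with a filter of 1 CPM in 2 libraries, 331 with no filter, 534 with DESeq2, 676 with the exact test, 162 on log2(RPKM + 1), 71 on log2(FPKM + 1) and 122 on log2(RPKM + 0.1). The replicate numbers are not known to pair the libraries (correlation of their deviations 0.24 across genes); with the replicate number as a block 62 genes passed, 2 of them markers, Rgs5 (adjusted p = 0.0150) and Mcam (adjusted p = 0.0458, edgeR). The count of markers at an unadjusted p under 0.05 was 4 to 7 with a library left out (edgeR). It was highest without CD34+ replicate 1, when Rgs4, Cspg4 (lower) and Kcnj8 (higher) joined. Kcnj8 was higher there (log2 fold change 1.21) but lower without CD34+ replicate 2 (-0.68). Such fits leave 1 library in a group, and the sign of Kcnj8 followed the CD34+ library kept. No conclusion is therefore drawn from this count.

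The median over the markers was -0.65 on estimated fragment counts, -1.09 on log2(RPKM + 1) with and without a filter, -1.14 on log2(FPKM + 1), -1.30 on log2(RPKM + 0.1) and -1.46 to -0.73 with a library left out. The filtered RPKM and FPKM scales place the median of all genes at -0.41, -0.41 and -0.49. On them Kcnj8 turned to -0.10 (RPKM, filtered or not), -0.12 (FPKM) and -0.13 (RPKM + 0.1), and Abcc9 to -0.26, -0.13 and -0.38. Signs turned with a library left out for Kcnj8 (-0.68 without CD34+ replicate 2; range -0.68 to 1.21), Abcc9 (-0.94 without CD34+ replicate 2, -0.07 without CD34- replicate 1; range -0.94 to 0.86) and Cspg4 (0.54 without CD34+ replicate 2, 0.18 without CD34- replicate 2; range -1.71 to 0.54). The causes were not tested. Depth limits Higd1b, with 8 reads in CD34+ cells in all.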
